A study of Arabidopsis thaliana with 18 samples.

Results

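Seedling establishment in a tocopherol-deficient mutant of Arabidopsis thaliana was followed by comparing whole vte1 seedlings at day 3 with vte1 seedlings at day 1. The mutant, vte1-1, carries a lesion in VTE1 in the Columbia-0 background, and a single allele was used. The comparison takes every array labelled vte1-1 at either age, 3 arrays per day and 6 of the 18 arrays of the series, and all probe sets other than controls. The other 12 arrays hold wild type Columbia-0 (WT) and vte2-1 (vte2) seedlings at the same ages, 3 arrays per group, and served here for the spread and for the question of whether the change in vte1 differed from theirs. All seedlings were kept for 5 days at 6 °C to break dormancy and then grown on plates with Murashige and Skoog salts at 22 °C under a 12 h photoperiod, so that day 1 and day 3 stand for 24 and 72 h at 22 °C. Each sample was RNA of about 100 mg of pooled whole seedlings, hybridised to an Affymetrix ATH1 array, and the labels call the replicates biological.

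VTE1 encodes tocopherol cyclase, which closes the chromanol ring of tocopherols (vitamin E) in the plastid, so that vte1 seedlings lack tocopherols and keep a redox-active precursor. VTE2 encodes the prenyltransferase at an earlier step, and vte2 seedlings lack both the tocopherols and that precursor. Tocopherols are lipid-soluble antioxidants that protect the stored oil of seeds and germinating seedlings from peroxidation. In these days of growth an oilseed seedling uses up its protein and oil reserves, extends its root and forms root hairs, and assembles chloroplasts, after which it feeds itself by photosynthesis. No probe set was named for VTE1 or VTE2 in the probe table used, so that the targeted genes were not analysed here.

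Values are MAS5 signals on a linear scale. The signal left after trimming the lowest and highest 2% averaged 500.05 to 500.06 on every vte1 array, while the median signal rose from 126.7, 121.8 and 143.8 at day 1 to 178.4, 180.95 and 174.95 at day 3. Log2 signals of vte1 arrays of the same day had Pearson's r of 0.898 to 0.974 over the probe sets, and those of different days with r between 0.612 and 0.706. Replicate 3 of day 1 stood apart from replicates 1 and 2: among the probe sets that changed between the days it was the day 1 array nearest to the day 3 mean for 57.8%, against 23.9% and 18.3% for replicates 1 and 2. The corresponding shares were 50.6% for replicate 3 in WT and 64.7% in vte2. On the log2 scale its GAPDH signal at the 3' end over that at the 5' end, a measure of RNA quality, was -0.13 against 1.13 and 0.56 in the other day 1 arrays. At day 3 replicate 3 had the lowest actin ratio, 2.70 against 4.88 and 4.74. The part of these differences in the results was not tested, and results that rest on 1 array are given with and without it.

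Most of the transcriptome measured here changed between day 1 and day 3. Of 15922 probe sets tested, 8494 (53.3%) changed at an adjusted p under 0.05, of which 4771 (30% of those tested) were higher at day 3 and 3723 (23.4%) were lower. Changes of 4-fold or more were reached by 1658 higher and 720 lower probe sets, and changes of 16-fold or more by 297 and 52. All 3 values of one day lay beyond all 3 of the other for 9333 probe sets (58.6%). The median log2 change over all probe sets tested was 0.14, and it was -0.10 after quantile normalization and -0.26 after centring each array on its median. With it the share of higher probe sets among those called went from 56.2% to 46.4% and 39%, so that the split between higher and lower depends on the scaling. Leaving out replicate 2 of every group lowered the number called to 5566. Fold changes are differences of log2(signal + 22), given with their SE, and understate the change of dim genes. In these bulk samples fewer cells of a type and less RNA per cell cannot be told apart.

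The 10 named genes that rose most went from low to high signals. AT3G05730 was at 31, 26.5 and 65.5 in the 3 arrays of day 1 and at 12564.7, 13403 and 11100.2 at day 3, a log2 change of 7.66 ± 0.30 (adjusted p = 1.39e-12). ECS1 went from 42.9, 4 and 60.4 to 10570.4, 7719.7 and 8534.5 (7.42 ± 0.36, adjusted p = 1.47e-11). THI2.2, which encodes a thionin, a small cysteine-rich antimicrobial peptide, was at 34.2, 8.5 and 299.5 and then at 10379.2, 9086.5 and 8256.4 (6.81 ± 0.64, adjusted p = 6.02e-08). For each of these genes every day 3 array lay far above every day 1 array, and for THI2.2 the highest day 1 value was that of replicate 3. AT2G37130, a class III peroxidase gene, rose from 4.4, 2.2 and 46 to 4653.8, 4196.4 and 4774 (7.02 ± 0.45). The other 6 were AT3G53980 (7.43), AT4G38080 (7.25), AT4G16980 (6.82), AT3G22620 (6.80), AT2G29290 (6.71) and AT1G22690 (6.43), for which the tables used give a locus and no name.

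The 10 named genes that fell most held 3 genes of the serine carboxypeptidase-like family, a group of hydrolases and acyltransferases. The transcript of scpl44, the first of the 10, was at 9731, 9609 and 6695.4 at day 1 and at 20, 56 and 53.6 at day 3, a log2 change of -7.09 ± 0.46 (adjusted p = 4.4e-10). For scpl35 the signals were 12118.9, 10552.9 and 8867.5 and then 193.4, 162.3 and 113.5 (-5.90 ± 0.23), and for scpl20 they were 10209.7, 10520.1 and 10676.9 and then 261.1, 280.9 and 191.9 (-5.31 ± 0.31). The 3 day 1 arrays were close together for these genes, and both days were far apart. LEA18, of the late embryogenesis abundant (LEA) proteins that accumulate in the drying seed, went from 13767.7, 17393.4 and 4624.6 to 164.4, 96.5 and 316.5 (-5.73 ± 0.97, adjusted p = 6.09e-05). ATOEP16-2, a channel protein of the plastid outer envelope, went from 4274, 5039.9 and 1185.1 to 3.1, 6.7 and 86.4 (-6.12 ± 0.73, adjusted p = 1.21e-06). In both genes the lowest day 1 value was that of replicate 3, and the groups still did not overlap. OCT1, an organic cation and carnitine transporter gene, went from 1265.5, 1064.1 and 2594.9 to 7.7, 11.4 and 33.2 (-5.34 ± 0.64), with replicate 3 the highest at day 1. The remaining 4 were AT2G47780 (-6.86), AT4G10270 (-6.53), AT5G66780 (-5.66) and AT1G29080 (-5.57).

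**Figure D1:**
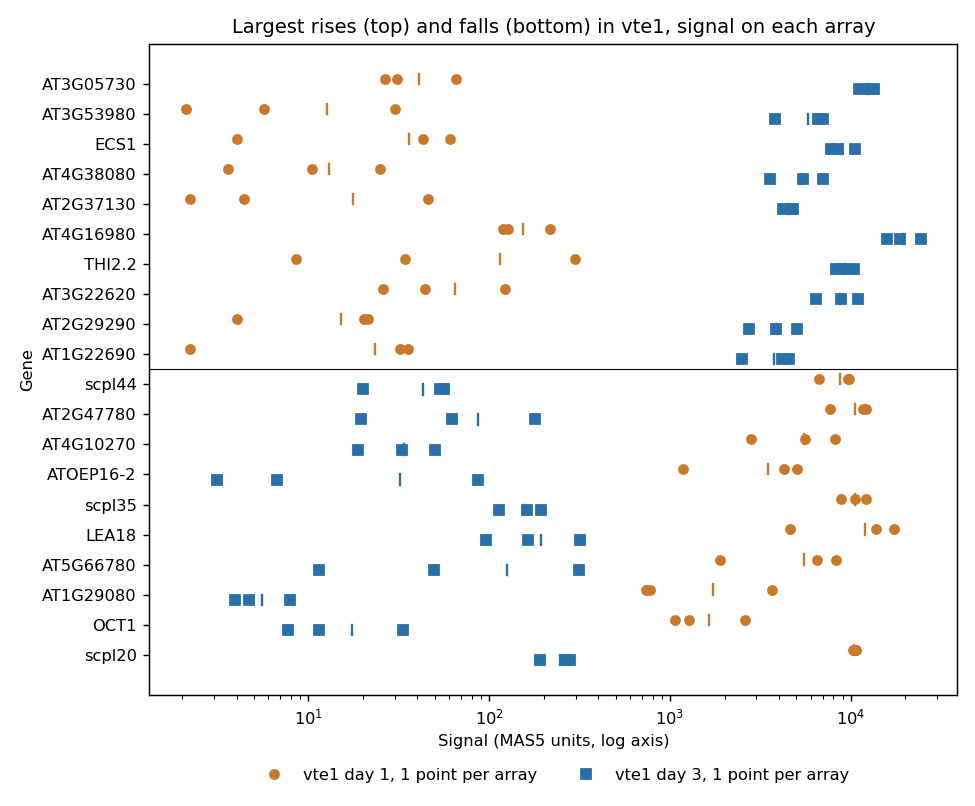
Signal of the 10 named genes that rose most and the 10 that fell most in vte1, on a log axis in MAS5 units. Each point is 1 array (circles day 1, squares day 3, 3 arrays each) and each short line a group mean; no gene has a day 1 array within the range of its day 3 arrays.

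Nuclear genes of photosynthesis rose together. All 11 tested genes of the photosystems, light harvesting and electron transport were called higher (median log2 change 3.10), against 30% of all probe sets. In all 11 the day 3 arrays lay above the day 1 arrays, against 32.9% of all probe sets. PSAN, a subunit of photosystem I on the lumen side, went from 344.3, 514.5 and 1071.8 to 26008.4, 20913.7 and 22739.4 (5.27 ± 0.33, adjusted p = 2.92e-10). LHCB4.2, a minor antenna protein of photosystem II, went from 589, 608.2 and 1174.5 to 30730.5, 23911.2 and 23563.6 (5.07 ± 0.25, adjusted p = 1.85e-11), and PSAE-1, a stromal subunit of photosystem I, from 1330.1, 1017.4 and 2989.2 to 35861.4, 29270.3 and 22715.4 (4.15 ± 0.30). In each of these genes replicate 3 was the highest of the day 1 arrays and still far below the lowest day 3 array. The smallest rise of the list was that of PSB27, from 4005.4, 4161.3 and 5091.9 to 18481.5, 15770.8 and 15180.4 (1.90 ± 0.21).

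Genes of carbon fixation and photorespiration rose as steeply. All 4 tested genes of the Calvin cycle and Rubisco rose (median 3.94), against 30% of all probe sets. PRK, phosphoribulokinase, which makes the substrate of Rubisco, was at 345.5, 608.2 and 1897.1 and then at 27296.7, 17960.2 and 18101.9 (4.76 ± 0.42, adjusted p = 2.51e-08). RCA, Rubisco activase, was at 1605.4, 1669.9 and 6045.1 and then at 55368.3, 40485.5 and 32983.3 (4.04 ± 0.38), and SBPASE, a phosphatase of its regenerating phase, at 735.7, 952 and 2769.6 and then at 20668, 17571 and 16873.1 (3.85 ± 0.35). Replicate 3 of day 1 was well above replicates 1 and 2 for all 3, and without it the list median was 4.54. Photorespiration salvages the product of Rubisco's reaction with oxygen. Of its 5 tested genes 4 (80%) rose and 1 (20%) fell (median 3.29), beside 30% and 23.4% of all probe sets. HPR, hydroxypyruvate reductase of the peroxisome, went from 788.2, 848.2 and 1255.5 to 27351.1, 20845.5 and 21606.9 (4.58 ± 0.22, adjusted p = 1.47e-11). AT2G35120 went the other way, from 7636.2, 6102.3 and 5114.1 to 2319.8, 2478.7 and 1842.3 (-1.49 ± 0.23, adjusted p = 2.16e-05), while AT1G32470 went from 603.5, 918.8 and 2728.8 to 12760.6, 11210.3 and 13533.8 (3.41 ± 0.34).

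Of 3 tested genes of tocopherol and prenylquinone synthesis 2 rose and none fell, beside 30% and 23.4% of all probe sets. AT1G74470, geranylgeranyl reductase, supplies the phytyl chain of both chlorophyll and tocopherol, and its transcript went from 1178.4, 1347.7 and 5117.5 to 23835.1, 17282.4 and 17563.1 (3.25 ± 0.36, adjusted p = 4.51e-07). NDC1, a plastoglobule NAD(P)H dehydrogenase that acts on prenylquinones, went from 240.8, 287 and 504.9 to 654.4, 953.5 and 1058.8 (1.35 ± 0.31, adjusted p = 0.00114). AT1G78620, the third gene of the list, was at 562.3, 482.1 and 570.8 and 498.8, 354.6 and 702.8, with overlapping groups (-0.10 ± 0.29, adjusted p = 0.79), and its sign turned without replicate 2 of day 3 (0.14). In chlorophyll synthesis 5 of 8 genes (62.5%) rose and none fell (median 1.08), beside 30% and 23.4% of all probe sets. CHLM, the methyltransferase after magnesium insertion, went from 2086.9, 1916.2 and 2973.6 to 11261.8, 9359.7 and 8426.4 (2.06 ± 0.24), and HEME1, uroporphyrinogen decarboxylase, from 548, 462.4 and 1186.2 to 1435.3, 1601.8 and 3343.4 (1.53 ± 0.33). LYC, lycopene cyclase and the single tested gene of carotenoid synthesis, went from 924.4, 764.6 and 540.1 to 1630, 1457.2 and 1675.5 (1.10 ± 0.22, adjusted p = 0.000405). Of 6 antioxidant enzyme genes 3 (50%) rose and none fell, beside the same shares of all probe sets (median 0.44, and 0.04 after median centring, where 2 fell). TAPX, the thylakoid ascorbate peroxidase, which removes hydrogen peroxide beside photosystem I, rose from 76.1, 114.9 and 84.2 to 3776.6, 3524.5 and 2977.2 (4.93 ± 0.32, adjusted p = 5.9e-10). SAPX, the stromal form, was at 2150.5, 2224.7 and 1515.3 and 1281.9, 1849.8 and 1297, with overlapping groups (-0.41 ± 0.27, adjusted p = 0.214), and was called lower after median centring.

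Genes encoded in the plastid rose less steeply and unevenly by role. Of 68 tested, 52 (76.5%) rose and 1 (1.47%) fell (median 1.56), beside 30% and 23.4% of all probe sets. The number higher ran from 41 (median centring) to 59 over constants, filters, scalings, fits and the replicate block. It was 43 to 53 without single vte1 arrays and 33 to 60 without 1 replicate number in all groups. In 44 of the 68 all day 3 arrays lay above all day 1 arrays, against 32.9% of all probe sets. Of 45 genes for photosystems, cytochrome complexes, ATP synthase, the NDH complex and Rubisco, 43 were called higher and none lower (median 2.11). Of 15 genes for the plastid ribosome 7 rose (median 0.97), and of 4 genes for the plastid RNA polymerase none rose and rpoC1 fell, from 5411.5, 4395.3 and 5609 to 2579.1, 3466.8 and 1988.5 (-0.96 ± 0.28, adjusted p = 0.00786). This division by role was made after the values were seen. The reaction centre gene psbA of photosystem II went from 320.8, 277.9 and 624.4 to 4045.9, 4919.2 and 6398.9 (3.64 ± 0.35, adjusted p = 8.82e-08), and the antenna gene psbC from 918.6, 413.9 and 708.6 to 18938.9, 17654.1 and 4868.3 (4.14 ± 0.90). For psbB the signals were 21.1, 85 and 1152.8 and 941.2, 2978.9 and 7720.3 (adjusted p = 0.00357). In psbB replicate 3 was the highest array of both days, and its day 1 value exceeded the lowest day 3 value. Plastid transcripts mostly lack the poly(A) tail from which labelling is primed, and what this does to the values was not tested. Of 12 mitochondrion-encoded genes none rose and 1 (8.33%) fell (median -0.64), beside 30% and 23.4% of all probe sets. The 1 that fell was ccb452 for cytochrome c assembly, from 272.8, 222.8 and 261.2 to 156.4, 59.3 and 104.6 (-1.16 ± 0.27, adjusted p = 0.00118). After quantile normalization 5 and after median centring 6 of the 12 were lower, and 2 without replicate 3 of day 1 or without replicate 1 of day 3.

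**Figure D2:**
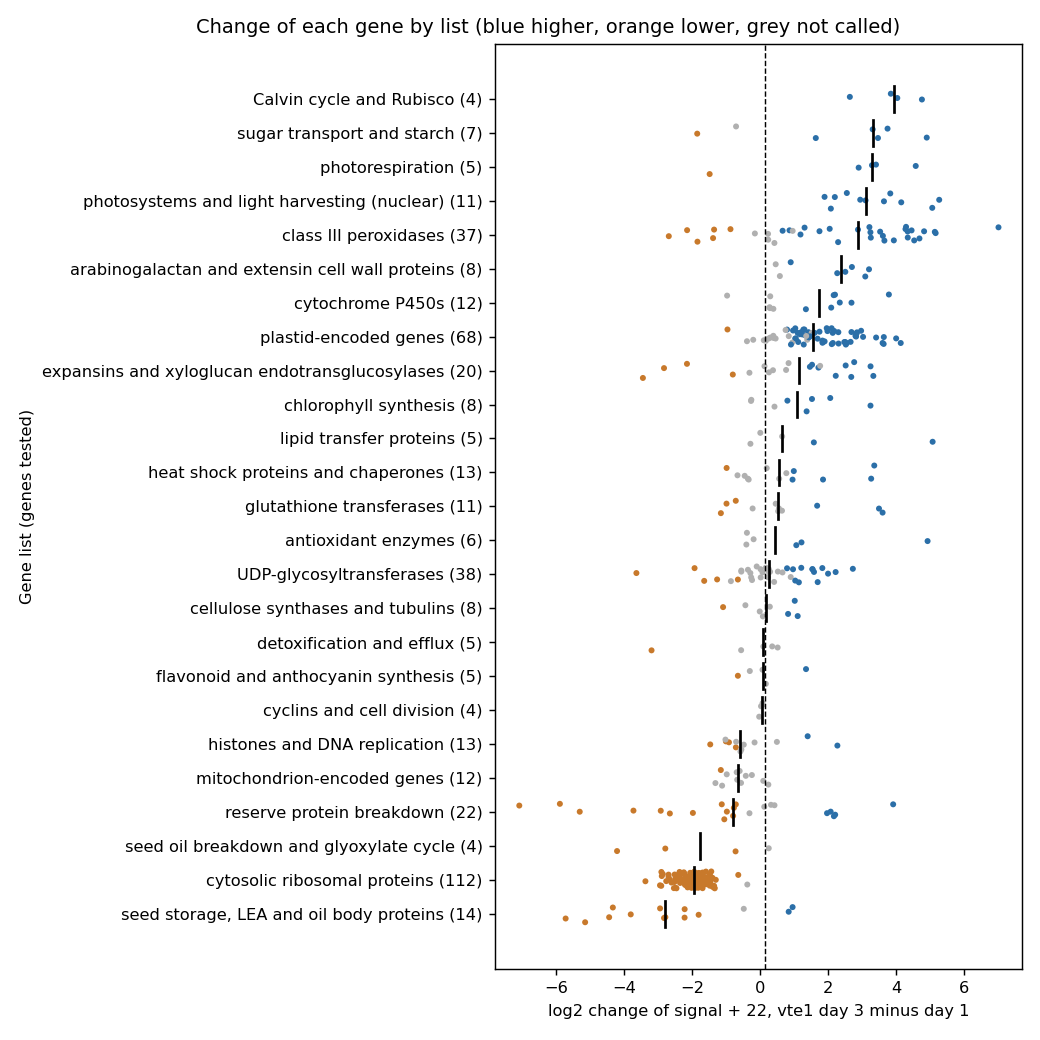
Log2 change of signal + 22 in vte1, day 3 minus day 1, for each gene of the 25 lists with at least 4 tested genes. Points are genes (blue called higher, orange called lower, grey not called at adjusted p under 0.05), black bars list medians and the dashed line the median of all probe sets tested, 0.14; photosynthesis lists lie on the right, ribosomal protein and seed lists on the left.

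Transcripts of the seed programme fell. Of 19 genes for seed storage, LEA and oil body proteins with a probe set 14 could be tested. Of these 11 (78.6%) fell and 2 (14.3%) rose (median -2.81), beside 23.4% and 30% of all probe sets. A gene dim at day 3 could enter the test only through bright other arrays, those of day 1 among them, so the count is a description. With the filter at the 50th percentile 7 were tested, of which 5 fell and 2 rose. AT3G15670, of the LEA group, went from 4695, 6716 and 2644.5 to 65.1, 5.4 and 763.2 (-5.16 ± 0.98, adjusted p = 0.00022), and LEA4-5 from 10964.8, 12017.4 and 1605.3 to 324.2, 187.5 and 263.7 (-4.45 ± 0.80, adjusted p = 0.000125). Replicate 3 of day 1 was the lowest day 1 array for both, and replicate 3 of day 3 the highest of its group for AT3G15670. OLEO3, an oleosin of the oil body surface, went from 599.5, 565.5 and 299 to 61.1, 12.7 and 66.5 (-2.95 ± 0.44). The 2 that rose were AT2G44060, listed as LEA26, from 2108.6, 2443.3 and 5007.8 to 5783, 5205.7 and 6315.7 (0.95 ± 0.28, adjusted p = 0.00769), and AT1G54410, the dehydrin HIRD11, from 5928.2, 6184.2 and 4880.4 to 12966, 11058.7 and 7188 (0.84 ± 0.28, adjusted p = 0.0168). Both lost their call after median centring, AT2G44060 also without replicate 1 of day 1, and AT1G54410 without replicate 1 or without replicate 2 of day 3. The mean log2(signal + 22) of the list was 10.8, 10.85 and 9.86 on the day 1 arrays and 7.63, 7.23 and 8.72 on the day 3 arrays, with replicate 3 nearest to the other day on both days.

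Genes for breaking down reserve protein went in both directions, while those called for oil breakdown all fell. Of 22 genes for reserve protein breakdown 13 (59.1%) fell and 5 (22.7%) rose (median -0.79), beside 23.4% and 30% of all probe sets. Among 17 serine carboxypeptidase-like genes 10 fell and 3 rose, the latter led by scpl28, from 6.6, 33.7 and 8.9 to 792.4, 545.7 and 344.4 (3.92 ± 0.54, adjusted p = 7.15e-06). The 4 vacuolar processing enzymes, proteases that mature and degrade vacuolar proteins, divided evenly. DELTA-VPE went from 3552.3, 3261.8 and 4477.6 to 243.3, 216.7 and 333.8 (-3.73) and BETA-VPE, the seed form, from 3272, 2822 and 1263.6 to 234.6, 455 and 368 (-2.66). GAMMA-VPE, a form of vegetative tissue, went from 819.7, 985.4 and 1060.9 to 4375.2, 4462.9 and 4576.1 (2.21 ± 0.24, adjusted p = 3.49e-07) and ALPHA-VPE from 11.3, 41.7 and 18.1 to 173.8, 155.8 and 161.2 (2.08). In all 4 the days did not overlap, which held for 58.6% of all probe sets. Of 4 genes for seed oil breakdown and the glyoxylate cycle 3 (75%) fell and none rose (median -1.76), beside 23.4% and 30% of all probe sets. ICL, isocitrate lyase of the glyoxylate cycle, which turns the carbon of seed oil towards sugar, went from 32028.5, 38796.5 and 53815.6 to 1545.4, 1397.8 and 4678.9 (-4.21 ± 0.46, adjusted p = 4.3e-07). SDP1, the main lipase of stored oil, went from 824.4, 1085.1 and 1141.6 to 600.8, 544.4 and 662.9 (-0.72 ± 0.27, adjusted p = 0.0322), a call lost when replicate 2 or 3 of day 1 or replicate 1 or 2 of day 3 was left out. SDP1-LIKE, its relative, went from 244.1, 344.1 and 272.2 to 18.8, 21 and 27 (-2.79 ± 0.29), and AIM1, a multifunctional protein of fatty acid oxidation, was at 971.8, 876 and 1824.9 and 1232.9, 1436.3 and 1500.9, with overlapping groups (0.25 ± 0.27, adjusted p = 0.458).

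Cytosolic ribosomal protein genes fell almost without exception. Of 112 tested, 111 fell and none rose (median -1.96), against 23.4% of all probe sets lower. In the same number the day 3 arrays lay below all day 1 arrays, against 25.7% of all probe sets. The group means of these genes ran from 219.3 to 46720 units with a median of 15920 at day 1, and from 171.7 to 14100 with a median of 4009 at day 3. AT4G30800 fell most, from 4257.9, 4336.1 and 1895.2 to 315.7, 312.5 and 258.9 (-3.38 ± 0.34, adjusted p = 1.54e-07). AT5G22440 went from 16445.4, 17055.5 and 17812.2 to 2529.7, 2627.9 and 1585 (-2.95 ± 0.23, adjusted p = 7.14e-09). The gene that was not called was AT5G59240, at 207.8, 262.3 and 187.9 and 221.2, 201.1 and 92.9 (-0.38 ± 0.29, adjusted p = 0.28), named after its values were seen. Under every scaling and filter tried the number of lower genes was between 110 and 112. The list mean on the 3 day 3 arrays was 11.82, 11.79 and 11.09 on the log2 scale, with replicate 3 the lowest, as was its actin ratio. Of 13 histone and DNA replication genes 4 (30.8%) fell and 2 (15.4%) rose (median -0.58), near the 23.4% lower of all probe sets. The number lower was 8 after quantile normalization and 10 after median centring. HTB1, a core histone H2B, went from 3458.7, 3447.6 and 3175.1 to 1388.1, 1396.1 and 885.6 (-1.47 ± 0.30, adjusted p = 0.000433), and HIS1-3, a linker histone induced by drought, from 3.9, 20.4 and 14.4 to 112, 228.3 and 112.8 (2.27 ± 0.40, adjusted p = 0.000103). Of 4 tested genes for cyclins and cell division, none was called, with changes between -0.03 and 0.08.

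Most tested class III peroxidase genes were called higher, while the cell wall lists were mixed. Class III peroxidases are plant enzymes of the wall and vacuole that cross-link or loosen walls with hydrogen peroxide. Of 55 with a probe set 37 were bright enough on average to be tested, and of these 26 (70.3%) rose and 6 (16.2%) fell (median 2.88), beside 30% and 23.4% of all probe sets. A gene dim at day 1 could enter the test only through bright other arrays, those of day 3 among them, so the count is given as a description. AT5G14130 went from 1.6, 2.9 and 3 to 988.6, 758.6 and 800.1 (5.14 ± 0.61, adjusted p = 1.08e-06), and AT5G66390, PRX72, from 10.3, 36 and 1.9 to 1045.6, 927.9 and 988.1 (4.83 ± 0.44). AT4G26010 went from 2.8, 1.5 and 381.5 to 1751.2, 2401 and 2517.8 (5.17 ± 1.05, adjusted p = 0.000405). In AT4G26010 replicate 3 of day 1 stood far above replicates 1 and 2, and in 17 of the 26 risen peroxidases it was the highest day 1 array. The genes that fell included AT4G31760, from 233.7, 173.4 and 287.1 to 8.2, 40.9 and 8.2 (-2.69 ± 0.39, adjusted p = 1.32e-05), and PRX52, from 79.8, 121.5 and 186.1 to 4.3, 27.7 and 4.5 (-2.15 ± 0.55, adjusted p = 0.00266).

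Expansins, which loosen walls during cell growth, split by member. Of 12 tested 6 rose and 4 fell. EXPA9 went from 7963.4, 7966.4 and 6444.3 to 499.3, 632.7 and 897.1 (-3.45 ± 0.30, adjusted p = 2.46e-08) and EXPA20 from 1129.2, 952.8 and 459 to 105.9, 64.2 and 113.7 (-2.83 ± 0.27), while EXLA1 went from 208.1, 99.8 and 201.1 to 1617.4, 1608.9 and 1993 (3.25 ± 0.34, adjusted p = 2.57e-07). EXPA7 and EXPA18, markers of root hair cells, went from 18.3, 33.2 and 244.7 to 380.7, 587.4 and 617.3 (2.68 ± 0.65, adjusted p = 0.00176) and from 43.3, 48.2 and 79.5 to 789.9, 749.1 and 737.8 (3.33 ± 0.66, adjusted p = 0.000315). Replicate 3 of day 1 had the highest signal of its group for both, most of all for EXPA7. Of 8 xyloglucan endotransglucosylase genes, which rejoin wall polymers, 3 rose and none fell. The whole list of 20 had 9 (45%) higher and 4 (20%) lower (median 1.15), beside 30% and 23.4% of all probe sets. Of 8 arabinogalactan and extensin genes, structural glycoproteins of the wall, 6 (75%) rose and none fell (median 2.39), among them HRGP1, from 114.6, 59.5 and 170.3 to 1299.8, 1525.3 and 631.4 (3.10 ± 0.60, adjusted p = 0.000249), with replicate 3 the lowest at day 3. Of 8 cellulose synthesis and tubulin genes 3 (37.5%) rose and 1 (12.5%) fell, with a median of 0.18 that became -0.21 after median centring. COB, which orients cellulose deposition, went from 2094.5, 2005.2 and 2042.4 to 4574.2, 4085.3 and 4643.8 (1.10 ± 0.17, adjusted p = 2.85e-05), and TUA6, an alpha tubulin, from 16515.4, 12626.1 and 14633.8 to 6555.7, 6579.2 and 7262 (-1.09 ± 0.21, adjusted p = 0.000198).

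Few markers of single cell types could be measured. Of 47 markers listed, 7 had a probe set and 5 could be tested. Of the stomatal lineage, FMA, which ends the divisions of the guard mother cell, went from 19.1, 30.2 and 23.8 to 96.2, 94.7 and 154.5 (1.54 ± 0.32, adjusted p = 0.000487), and MUTE, which acts a step earlier, from 76.9, 87.9 and 75.9 to 19.3, 5.3 and 57.6 (-1.19 ± 0.47, adjusted p = 0.0387). The call for MUTE was lost when any 1 of the vte1 arrays other than replicate 3 of day 3 was left out, with adjusted p up to 0.182, and that for FMA was kept in each case. SPCH, which starts the lineage, was at 36.8, 98.8 and 258.7 and 232.6, 138.4 and 258.3, with overlapping groups (0.84 ± 0.44, adjusted p = 0.115), and it was called higher without replicate 3 of day 1. BAN, a seed coat marker, and CLV3, a marker of the shoot meristem, were too dim on average to be tested, with values from 2.4 to 54.2 and from 1.9 to 76 units on the vte1 arrays.

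Most tested genes of sugar transport were called higher. Of 18 genes of sugar transport and starch with a probe set 7 could be tested, and 5 (71.4%) rose and 1 (14.3%) fell (median 3.31), beside 30% and 23.4% of all probe sets. Here too a gene dim at day 1 could enter the test only through bright other arrays, so the count is a description. SWEET proteins let sugars pass along their gradient, SWEET11 across the plasma membrane for phloem loading and SWEET16 and SWEET17 across the tonoplast. The transcript of SWEET11 went from 119.9, 83.1 and 216.9 to 4833, 4673.7 and 4182.2 (4.91 ± 0.34, adjusted p = 1.25e-09). SWEET17 went from 42.4, 3.6 and 23.7 to 394.7, 620.8 and 664.2 (3.75 ± 0.42, adjusted p = 5.13e-07), and SWEET2, also of the tonoplast, from 48.4, 89.1 and 64.3 to 620.2, 943 and 1457.1 (3.47 ± 0.37, adjusted p = 3.47e-07). SWEET1 did not follow them, with 1567.5, 1829.8 and 684.7 and 600.8, 704.3 and 1027.9 and overlapping groups (-0.71 ± 0.40, adjusted p = 0.146). Without replicate 3 of day 1 it was called lower. APL3, a large subunit of the starch enzyme ADP-glucose pyrophosphorylase, went from 337.5, 576.4 and 566.9 to 123.4, 117.2 and 110.5 (-1.85 ± 0.26, adjusted p = 6.76e-06).

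Genes of detoxification and secondary metabolism differed in direction between lists and within some of them. Of 11 glutathione transferase genes 3 (27.3%) rose and 3 (27.3%) fell, near the 30% and 23.4% of all probe sets. GSTL3 went from 143.9, 322.3 and 278.1 to 2803.1, 2833.5 and 3804.4 (3.60 ± 0.41, adjusted p = 5.81e-07) and GSTU18 from 49.4, 36 and 112.9 to 831.1, 897.7 and 1007.1 (3.50 ± 0.30), while GSTU25 went from 2412.9, 1798.6 and 1407.7 to 702.7, 933.9 and 802.4 (-1.16 ± 0.30, adjusted p = 0.00334). Without replicate 2 of day 1 or without replicate 3 of day 3, 1 of the 3 lower calls was left. Of 38 UDP-glycosyltransferases 13 (34.2%) rose and 5 (13.2%) fell, beside 30% and 23.4% of all probe sets, and the median of 0.26 became -0.14 after median centring. UGT72B3 went from 4, 23.4 and 15.3 to 205.3, 234 and 198.6 (2.73 ± 0.54, adjusted p = 0.000306) and UGT76E12 from 579, 670 and 870.9 to 32.2, 46.5 and 29.1 (-3.64 ± 0.34, adjusted p = 6.24e-08). Of 24 cytochrome P450 genes with a probe set 12 could be tested. Of these 7 (58.3%) rose and none fell (median 1.72), beside the same 30% and 23.4%. They were led by CYP71B26, from 8.6, 39.1 and 42.1 to 594.1, 754.5 and 641.6 (3.79 ± 0.37, adjusted p = 1.04e-07). A P450 gene dim at day 1 could enter the test only through bright other arrays, so this count is a description. When dim probe sets up to the 50th percentile were left out, 2 of 5 rose and the median was 0.39. After quantile normalization or median centring 7 of the 12 rose and 1 fell. AT2G21640 was the one called gene among 5 of detoxification and efflux and went from 2191.1, 2220.8 and 793.2 to 236.1, 274.3 and 46.3 (-3.20 ± 0.49, adjusted p = 1.95e-05), with replicate 3 the lowest on both days.

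In the heat shock, lipid transfer and flavonoid lists 40% to 46.2% of the tested genes were called, beside 53.3% of all probe sets. Of 13 heat shock and chaperone genes 5 (38.5%) rose and 1 (7.69%) fell (median 0.56), beside 30% and 23.4% of all probe sets, and after median centring 3 rose and 5 fell. AT1G53540 went from 14.6, 3.2 and 51 to 382.2, 387.4 and 418.3 (3.36 ± 0.35, adjusted p = 2.55e-07), and 3 of the 5 calls were left without replicate 2 of day 1. Of 5 lipid transfer protein genes 2 (40%) rose and none fell (median 0.65), beside the same shares of all probe sets. Among them AT2G10940 went from 360.8, 507 and 1155.8 to 25192.4, 18581.8 and 19592.7 (5.08 ± 0.41, adjusted p = 8.12e-09). Of 5 flavonoid genes 1 (20%) rose and 1 (20%) fell, no more than the shares of all probe sets. Both calls were lost when some single arrays were left out, that of DFR also with no filter, after quantile normalization and after median centring. DFR, dihydroflavonol reductase, was at 37.4, 24.3 and 55.4 and 81.3, 225.2 and 116.1 (1.35 ± 0.54, adjusted p = 0.041), called no longer without replicate 1 or 2 of day 1 or without replicate 2 or 3 of day 3. UGT78D1, a flavonol glycosyltransferase, was at 898.5, 1108.9 and 1095.7 and 683.5, 748.6 and 524.6 (-0.66 ± 0.25, adjusted p = 0.0353), called no longer without replicate 2 or 3 of day 1 or without replicate 1 or 3 of day 3.

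Of the gibberellin receptor genes GID1A, GID1B and GID1C only GID1B was called, beside 53.3% of all probe sets. It was at 71.6, 74.9 and 106.8 and then at 122.6, 163.6 and 230.2 (0.84 ± 0.29, adjusted p = 0.0215). The call was lost after quantile normalization or median centring, without replicate 1 or 2 of day 1 or without replicate 3 of day 3. PDF1.2 and PDF1.2b, defensin genes of the jasmonate and ethylene response, were called lower (-1.30 ± 0.47 and -1.28 ± 0.48), beside 23.4% of all probe sets. PDF1.2 was called no longer with the vte1 arrays fitted alone, without replicate 1 of day 1 or without replicate 3 of day 3 (-0.83 there). PDF1.2b was called no longer without replicate 1 or 2 of either day. UGT74B1, of glucosinolate synthesis, was at 682.3, 708.6 and 523 and 731.8, 553.8 and 500.3, with overlapping groups (-0.10 ± 0.23, adjusted p = 0.732).

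**Figure D3:**
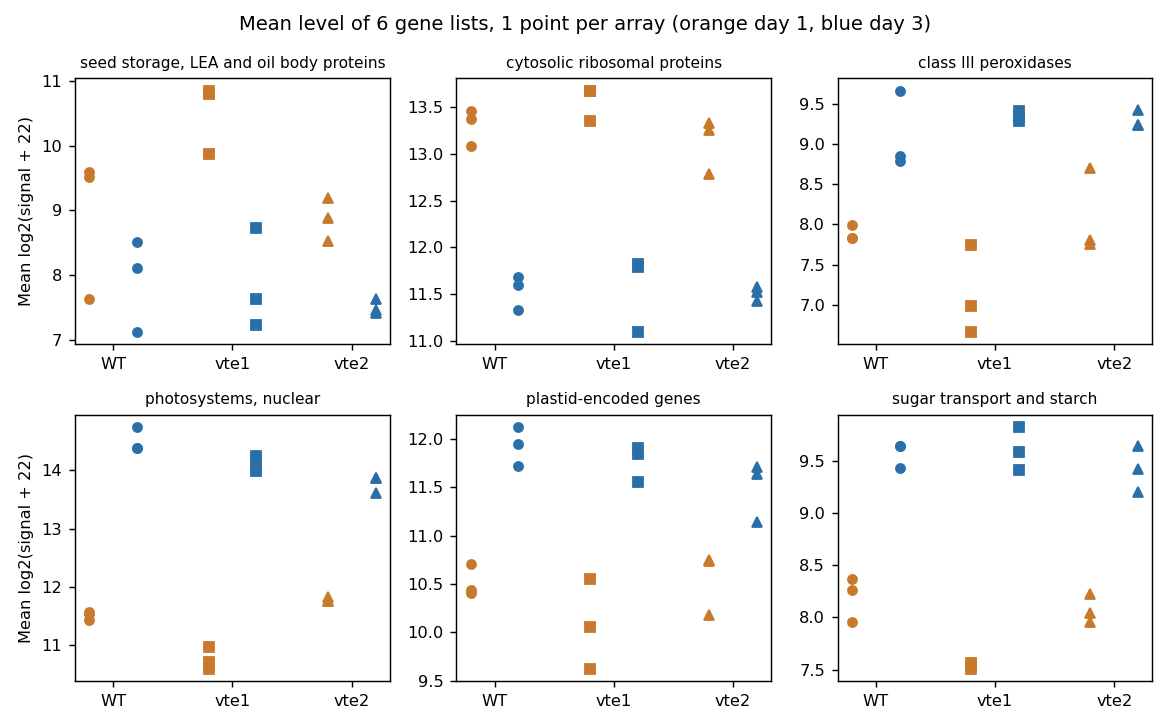
Mean log2(signal + 22) of the tested genes of 6 lists on each of the 18 arrays, by genotype (circles WT, squares vte1, triangles vte2; orange day 1, blue day 3). In vte1 the 3 day 1 arrays of the photosystem list lie at 10.59, 10.7 and 10.97 and those of day 3 at 14.24, 13.99 and 14.05; the day 1 arrays of vte1 are above those of WT for seed storage and LEA proteins (10.8, 10.85 and 9.86 against 9.52, 9.59 and 7.63).

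The change in vte1 was largely shared with WT and vte2, as far as calls go. Of the 8494 probe sets called in vte1, 6134 were called in the same direction in WT, which is 72.2% of those of vte1 and 81.3% of the 7544 (47.4% of those tested, 24.6% higher and 22.8% lower) called in WT. With vte2 5239 were shared, 61.7% of those of vte1 and 81.9% of the 6398 (40.2%, 21.7% higher and 18.5% lower) called in vte2. In all 3 genotypes 2562 were higher and 2272 lower. Opposite calls were made for 27 probe sets in WT and 50 in vte2. Log2 changes correlated across probe sets with r = 0.884 between vte1 and WT and 0.831 between vte1 and vte2; no arrays are shared between these comparisons, and probe sets are not independent replicates. The median size of the log2 change over all 15922 probe sets was 0.83 in vte1, 0.73 in WT and 0.64 in vte2. By list, the median change of the nuclear photosystem genes was 3.10 in vte1, 2.88 in WT and 1.81 in vte2, that of the seed storage and LEA genes -2.81, -0.90 and -1.50, and that of the class III peroxidases 2.88, 1.34 and 0.96. By direct test 0 of 11 photosystem, 1 of 14 seed and 2 of 37 peroxidase genes were called different from WT. The share of all probe sets was 1.06%, and these counts are too small to set against it.

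Tested directly, the change in vte1 differed from the change in WT for 168 probe sets (1.06%), 141 (0.886%) with a more positive and 27 (0.17%) with a more negative change in vte1. Of the 168, 132 were positive with a rise in vte1 and 18 negative with a fall in vte1, whatever the change in WT. In 104 of the 168 both genotypes changed in the same direction. The 141 positive ones lay lower in vte1 than in WT at day 1 (median log2 difference -1.66) and slightly higher at day 3 (0.64), and for 120 of them the genotypes were further apart at day 1 than at day 3. The 27 negative ones were the other way round, with medians of 0.65 at day 1 and -1.23 at day 3, and 22 of them were further apart at day 3. These days enter the difference tested, and the values describe where it lay. The number called depends on single arrays. It was 637 without replicate 3 of vte1 at day 1 and 374 without replicate 3 of WT at day 3. It was 71 and 36 without replicates 1 and 2 of vte1 at day 1, 41 and 36 without those of vte1 at day 3, 34 each without those of WT at day 1, and 38 and 33 without those of WT at day 3. Without replicate 1 or without replicate 2 in all groups it was 0 by limma (850 and 770 at an unadjusted p under 0.05), and without replicate 3 in all groups it was 2142.

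SWEET11 and 2 class III peroxidases were among the named genes with the most positive difference. SWEET11 rose in vte1 as given above, and in WT it went from 2092.3, 1451.6 and 673.4 to 2716.6, 3604.6 and 4878.2, so that the day 1 arrays of vte1 all lay below those of WT (difference of the changes 3.41 ± 0.48, adjusted p = 0.00325). AT1G30870, a peroxidase gene, went from 5.4, 28.2 and 440.6 to 1964.4, 1757.2 and 1891.6 in vte1 and from 1394.8, 1260.5 and 1490.8 to 871, 1163.9 and 2307.5 in WT (4.51 ± 1.08, adjusted p = 0.0489). AT5G51890, another, went from 40.8, 55.6 and 469.7 to 1367.2, 1177.5 and 1237.5 in vte1 and from 1215.9, 1173.3 and 859.3 to 780.6, 734.6 and 1485.2 in WT (3.43 ± 0.71, adjusted p = 0.0231). In all 3 the day 3 arrays of the genotypes overlapped, and the gap was at day 1, where replicate 3 of vte1 was the nearest to WT. AT4G23680 rose in vte1, from 725.8, 1058.8 and 4474 to 6467.4, 5657.9 and 5170.3, and went from 10362.9, 9876.6 and 8298.9 to 3773.3, 2697.3 and 4964 in WT (3.26 ± 0.62, adjusted p = 0.0183). AT4G29700 was at 45.4, 15.1 and 140.7 and 239, 312 and 145.5 in vte1 and at 238.1, 262.8 and 413.8 and 66.2, 130.9 and 122.9 in WT (3.07 ± 0.67, adjusted p = 0.0307).

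On the negative side, AT1G56220 rose in WT from 401.9, 633.6 and 775.1 to 9683.2, 8084.7 and 4032.6, while in vte1 it was at 1039.5, 1729.1 and 1233.6 and 1905.7, 1850.9 and 2222.8 (-2.90 ± 0.47, adjusted p = 0.00974). AT1G21680 went from 54.6, 2.3 and 47.5 to 3608.4, 3070.5 and 1180.1 in WT and from 76.1, 122.9 and 132.3 to 474.8, 430.3 and 593 in vte1 (-3.56 ± 0.71, adjusted p = 0.0203). For both, the day 3 arrays of vte1 lay below all day 3 arrays of WT. AT4G21020, a LEA gene, was at 72.9, 92.8 and 50.1 and 102.3, 100.1 and 85.7 in WT and went from 528.1, 446.8 and 317.6 to 7, 31.9 and 133.5 in vte1 (-3.18 ± 0.67, adjusted p = 0.0268). AT3G62950 (-2.62 ± 0.56, adjusted p = 0.0278) and AT1G22490, the transcription factor gene bHLH94 (-2.60 ± 0.61, adjusted p = 0.042), completed the 5. Without replicate 1 or without replicate 2 in all groups none of these 10 genes was called. With no more than a single array left out, and under the other constants, filters, scalings and fits, SWEET11 and AT1G56220 stayed called. The other 8 each lost it without replicate 2 of WT at day 1, without replicate 1 or 2 of WT at day 3, without replicate 2 of vte1 at day 1 and without replicate 1 of vte1 at day 3, and some of them without further arrays, with adjusted p up to 0.19. AT1G30870 was also lost with added constants of 8 and 64, without the filter and without the mean-variance trend. With the constant of 8 AT4G21020, AT3G62950 and AT1G22490 were lost, and with the arrays of WT and vte1 fitted alone AT5G51890 and AT1G22490.

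**Figure D4:**
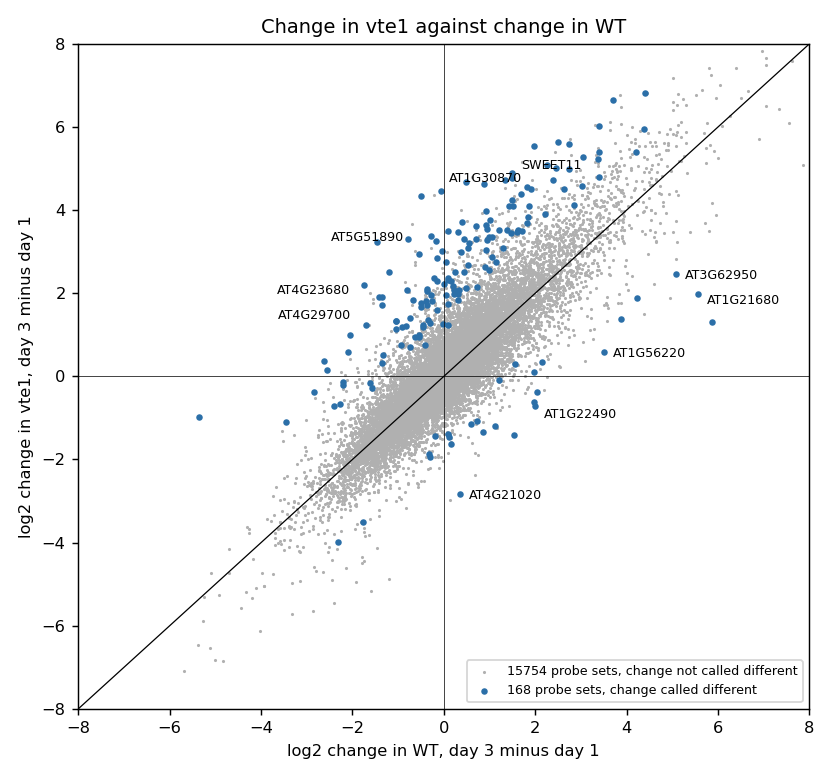
Log2 change from day 1 to day 3 in vte1 (vertical) against WT (horizontal) for 15922 probe sets, with the line of equal change. Blue points are the 168 probe sets whose changes were called different, most of them above the line, and the 10 named genes are labelled.

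Against vte2 the change differed for 842 probe sets (5.29%), 611 (3.84%) more positive and 231 (1.45%) more negative in vte1. The positive ones lay lower in vte1 at day 1 (median -1.20) and higher at day 3 (0.65). The number was 1708 without replicate 3 of vte1 at day 1, 548 and 453 without its replicates 1 and 2, 460 and 510 without replicates 1 and 2 of vte1 at day 3, and 560 and 539 without those of vte2 at day 3. Without replicate 1, 2 or 3 in all groups it was 2, 5 and 3154. Differences against both genotypes were called for 140 probe sets, all in the same direction, 124 positive and 16 negative; the vte1 arrays enter both tests. AT3G49960, a class III peroxidase gene, went from 1.9, 18.5 and 276.2 to 880.3, 675.3 and 901 in vte1 and from 382.2, 353 and 5823.2 to 481.8, 326.1 and 249.2 in vte2 (5.06 ± 1.19, adjusted p = 0.0166). This call was lost without replicate 1 or without replicate 2 of vte1 at day 1. THI2.2 went from 303.1, 432.7 and 1700.4 to 3842, 3150.2 and 5209.7 in vte2, a smaller rise than in vte1 (4.15 ± 0.90, adjusted p = 0.0107). SWEET11, at 1209.9, 909.9 and 1193.2 and 2420, 2256.4 and 2973.8 in vte2 (3.71 ± 0.48, adjusted p = 0.000371), AT1G30870 (4.90 ± 1.08) and AT5G51890 (4.08 ± 0.71) were the other named genes on this side. The nuclear photosystem genes were called different in 7 of 11 cases and the class III peroxidases in 9 of 37, 6 of them positive.

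Genes that stayed low in vte1 and rose in vte2 made up most of the named negative differences. AT4G12490, of the lipid transfer protein family, was at 23.7, 50.6 and 2.2 and 9.9, 26.3 and 6.7 in vte1 and went from 78.7, 9.1 and 91 to 5413.7, 3975.3 and 3312.2 in vte2 (-6.17 ± 0.67, adjusted p = 4.24e-05). AT1G65500 went from 73.1, 24.7 and 40.5 to 13.1, 5 and 12 in vte1 and from 5.5, 8.6 and 36 to 955, 1655.4 and 1185.3 in vte2 (-6.14 ± 0.53, adjusted p = 8.5e-06). At day 3 every vte2 array lay above every vte1 array for both. PRX52, which fell in vte1, went from 57, 10.2 and 19.3 to 613, 495.8 and 399.1 in vte2 (-5.61 ± 0.77, adjusted p = 0.000528). AT2G43620 was at 6, 6.7 and 152.8 and 23.2, 54.6 and 70.2 in vte1 and went from 19.7, 2.8 and 43.7 to 2055.9, 2203.2 and 1733.3 in vte2 (-5.23 ± 0.81, adjusted p = 0.00113). In WT these genes were low at day 3 too, AT4G12490 at 68.4, 59 and 22.9 and AT1G65500 at 3.7, 4.2 and 6.5. PRX52 was at 5.5, 3.1 and 63 there, and AT2G43620 at 106.4, 49 and 140.7. Their changes in vte1 were not called different from those in WT (limma, adjusted p 0.995, 0.613, 0.597 and 0.639 in this order). AT3G62550 rose in both, to 131.8, 143 and 582 in vte1 and to 2966.2, 6744.6 and 493.9 in vte2 (-3.66 ± 0.97, adjusted p = 0.0342), and its call was lost with the arrays of vte1 and vte2 fitted alone, without replicate 1 or 2 of vte1 on either day, without replicate 1 of vte2 at day 1 and without replicate 1 or 2 of vte2 at day 3. In WT AT3G62550 rose to 3372.5, 2223.8 and 1264.8, and its change in vte1 was not called different from that in WT (limma, adjusted p = 0.147). AT1G65500 alone of the 10 genes named against vte2 stayed called both without replicate 1 and without replicate 2 in all groups.

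**Figure D5:**
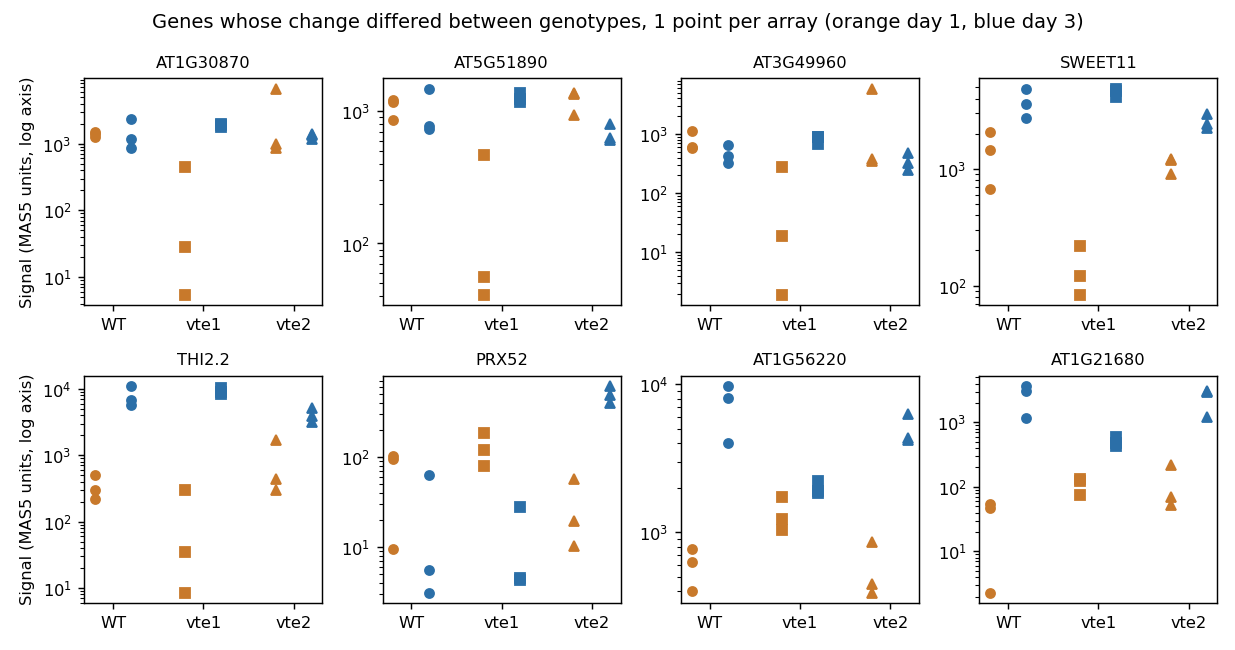
Signal on each of the 18 arrays, on log axes in MAS5 units, of 8 genes whose change in vte1 differed from that in WT or in vte2 (circles WT, squares vte1, triangles vte2; orange day 1, blue day 3). In the AT1G30870, AT5G51890, AT3G49960 and SWEET11 panels the day 1 arrays of vte1 lie below those of WT and vte2. In the PRX52 panel the day 3 arrays of vte2 lie above all other arrays.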

How the data were processed

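RNA of whole seedlings was measured on 18 ATH1 arrays. The deposited values are intensity values, linear MAS5 signals per the submitters' processing notes. Which version and target value the authors used is not given in the sources used here. Every array had nearly the same trimmed mean, so the authors had scaled them to one target. Arrays carry no counting depth, and their number limits the precision.

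The 64 control probe sets were left out, 22 units were added to every signal before log2 (20% of signals lie at or below that), and probe sets with a mean above the 30th percentile were kept, 15922 of 22746. A gene dim on one day could pass this filter through bright arrays of the other, so called shares of the gene lists are descriptions. Genes were named from GEO's platform annotation in the probe table: 13513 probe sets had 1 gene, 503 several and 8730 none. Of the 13513, 13436 matched a locus of RefSeq (assembly TAIR10.1), used for names and synonyms alone. Coordinates are left out because the sources used here name no build.

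One linear model with 6 group means was fitted to all arrays with limma 3.58.1 (lmFit, then eBayes with trend) under R 4.3.3 and data.table (version 1.17.8); figures were drawn in Python 3.11.15 with pandas 2.3.3 and matplotlib 3.10.9. P-values are two-sided, adjusted by the Benjamini-Hochberg method over all probe sets of a contrast, and called under 0.05. With 3 arrays a group the smallest exact permutation p is 0.1. On data simulated for the vte1 comparison (15922 probe sets, 200 changed, 5 simulations) 91.2% of 4-fold and 23.6% of 2-fold changes were recovered, with 6.06% false calls; for the difference from WT the values were 54.8%, 3.8% and 4.87%. Far more probe sets than 200 were called in the real vte1 comparison, 8494, so its recovery may differ from these shares.

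The members, the 30 gene lists and the rule for naming genes were chosen with earlier results of these data known, and some lists were drawn up once the probe annotation was known. List membership of genes without a name comes from locus lists compiled from general knowledge; 293 of 851 listed loci had a probe set. For each list the probe set with the highest mean stands for a gene. Named were the 10 largest rises and falls with groups that do not overlap, up to 3 called genes per list and direction, all tocopherol genes, and the 5 largest differences from WT and vte2 each way. Other list members given as examples (OLEO3, PSB27, the remaining vacuolar processing enzymes, PRX72, SAPX, AIM1 and SWEET1) were chosen after their values were seen. Alternatives varied the added constant, filter, scaling, trend, replicate block and arrays.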

Additional observations from a re-analysis of the deposited data

Results flagged for a closer look

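For 20 differences of named genes the change from day 1 to day 3 in vte1 differed from the change in another genotype by a direct test (limma, adjusted p under 0.05). Against WT the log2 difference of the changes was 4.51 for AT1G30870, 3.43 for AT5G51890, 3.41 for SWEET11, 3.26 for AT4G23680 and 3.07 for AT4G29700. On the negative side it was -3.56 for AT1G21680, -3.18 for AT4G21020, -2.90 for AT1G56220, -2.62 for AT3G62950 and -2.60 for AT1G22490.

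Against vte2 it was 5.06 for AT3G49960, 4.90 for AT1G30870, 4.15 for THI2.2, 4.08 for AT5G51890 and 3.71 for SWEET11. On the negative side it was -6.17 for AT4G12490, -6.14 for AT1G65500, -5.61 for PRX52, -5.23 for AT2G43620 and -3.66 for AT3G62550. Groups of 3 arrays are too small for a test of single outlying arrays, and none was made.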

How the results depend on the processing

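The number of probe sets called between the days in vte1 was 6682 to 9075 over the other constants, filters, scalings, fits and the replicate block, and 5566 to 10022 when arrays were left out (5566 without replicate 2). Of 118 named genes tested for this change, 104 stayed called under the constants, filters, scalings, fits and replicate block and without any single array, and 13 lost the call under at least 1 of these. Of the 104, CYP718, EXPA15, GSTU25, Cpn60beta3, psbB, rpoC1 and NDC1 lost it without replicate 1 or without replicate 2 in all groups, which leaves 97. AT1G78620 was not called and ranged from -0.34 to 0.14 when arrays were left out (0.06 without replicate 2 in all groups). Differences from WT numbered 133 to 185 over constants, filters, scalings, trend and fit, and 0 to 2142 when arrays were left out. Differences from vte2 numbered 642 to 922 and 2 to 3154. Between day 1 and day 3 of vte1 the deviations of same-numbered arrays were hardly correlated (r = 0.05, -0.000923 and 0.08 for replicates 1, 2 and 3), and not every array correlated best with its own number. Over all groups the correlation of the deviations was over 0.1 in 20 of 45 same-numbered pairs (median 0.0785, highest 0.592) and in 10 of 90 pairs of different number (median -0.0466); whether arrays of 1 number share a batch was not tested. The labels name no shared batch, and the main fit did not pair the samples by number. Whether the numbers share an effect cannot be decided by some same-numbered pairs not being over 0.1. With the replicate block 9075 probe sets were called in vte1, 372 differed from WT (412 with quantile normalization) and 1285 from vte2. The cause of these shifts was not tested. Promoter motifs were not analysed here. In data simulated with 3 arrays per group and 200 changed probe sets, most 2-fold changes were missed. With 8494 probe sets called between the days in vte1, that share cannot be carried over to this comparison.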

Other observations

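PORB, protochlorophyllide oxidoreductase of chlorophyll synthesis, was chosen after its values were seen. Its signal was 655, 778.2 and 5529.5 in vte1 at day 1 and 671.8, 713.4 and 3341.3 at day 3, so that replicate 3 was the highest array on both days and the days overlapped. In WT it was 10677.4, 8648.1 and 8529.5 at day 1 and 4642.9, 4364.4 and 3603.9 at day 3. In vte2 it was 9897.4, 11181.2 and 6964.6 at day 1 and 5239.6, 7165.6 and 851.5 at day 3. At day 1 all vte1 arrays lay below all WT and vte2 arrays. These differences between genotypes were not tested.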
